A study of Mus musculus with 5 samples.

Results

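The genes of the mitochondrial genome were described in the gastrocnemius, a mainly fast-twitch calf muscle, of female mice of the NSG strain, aged 12 weeks. Members were all genes on chromosome M whose symbol begins with mt-, matched by Ensembl identifier. The annotation holds 37 of them, 13 for messenger RNA, 2 for ribosomal RNA and 22 for transfer RNA. The 13 messenger RNA genes were measured, out of 35275 genes in the table, and the other 24 were not analysed here. All 13 lay above a mean of 1 FPKM (reads per kilobase of gene and per 1000000 reads of a library). The 5 samples form 1 group. NSG is an immunodeficient strain without mature lymphocytes (T, B and natural killer cells), and its genotype is otherwise labelled wild type. Each mouse had been given 10 tail-vein injections, 2 per week over 5 weeks, each holding some 10 µg of the extracellular vesicles that MCF-10A/miR122 cells release, and was sampled 2 days after the final dose. MCF-10A is a human breast epithelial line that does not form tumours. The microRNA miR-122 is best known from liver. No untreated muscle was compared, so the values describe treated muscle and the spread between its 5 libraries, which are numbered as in the labels. Whether every number stands for its own animal is not in the labels, and this spread may be partly technical.

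The mitochondrial genome is a small circle that is transcribed from both strands into long RNAs. The transfer RNAs between the other genes are cut out, which releases the messenger and ribosomal RNAs, and most of the messenger RNAs then receive a short poly-A tail. All 13 messenger RNAs encode subunits of the respiratory chain and ATP synthase: 7 of complex I (NADH dehydrogenase), 1 of complex III, 3 of complex IV (cytochrome c oxidase) and 2 of complex V (ATP synthase). The remaining subunits of these complexes are encoded in the nucleus. Nuclear chromosomes also carry copies of stretches of mitochondrial DNA, some of which are annotated as pseudogenes.

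A stretch of this kind on chromosome 1 of the build GRCm38 (mm10), from 24611535 to 24616197 on the minus strand, holds 7 annotated pseudogenes that match members at 99% identity or more. They correspond to bases 6390 to 11042 of chromosome M, from the last part of mt-Co1 to the first part of mt-Nd4. Of the 13 members, 6 lie wholly inside this stretch, namely mt-Co2, mt-Atp8, mt-Atp6, mt-Co3, mt-Nd3 and mt-Nd4l. Another 2 lie partly inside, mt-Co1 with 31.3% of its bases and mt-Nd4 with 63.6%, and 5 lie outside. The first 60 bases of mt-Co2 and of its copy Gm28661 are shown because a read lying within them matches both places equally; capitals mark the start codon.
mt-Co2: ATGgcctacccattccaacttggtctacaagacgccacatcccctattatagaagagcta
Gm28661: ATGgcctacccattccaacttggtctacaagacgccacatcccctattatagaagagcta

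No difference was found between mt-Co2 and Gm28661 over 681 aligned bases, between mt-Atp6 and Gm10925 over 678, between mt-Co3 and Gm28437 over 783, between mt-Nd4l and Gm10222 over 294 or between mt-Nd4 and Gm28439 over 876. The alignment of mt-Nd3 with Gm28438 held 1 mismatch in 345 bases and that of mt-Co1 with Gm29216 held 1 in 483. These 2 places are shown because they are the only mismatches in the aligned parts, and capitals mark the base that differs. Counted from the first base of the gene, the differences are T3C in mt-Nd3 and A1066T in mt-Co1.
mt-Nd3: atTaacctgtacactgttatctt
Gm28438: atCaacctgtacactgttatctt
mt-Co1: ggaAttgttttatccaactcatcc
Gm29216: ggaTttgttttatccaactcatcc

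The extent of the copies was measured as the share of 100-base windows of a gene that occur unchanged in an annotated nuclear transcript, on either strand. It was 99.5% for mt-Co2, 99.5% for mt-Atp6, 99.9% for mt-Co3, 97.6% for mt-Nd3 and 98.5% for mt-Nd4l. It was 60.8% for mt-Nd4, 30.8% for mt-Co1 and 3.19% for mt-Nd2, and 0% for mt-Nd1, mt-Nd5, mt-Nd6 and mt-Cytb. Windows of 150 bases gave 59.2% for mt-Nd4 and 23.6% for mt-Co1, and windows of 50 bases gave 62.2% and 51.1%. For mt-Atp8 no copy is annotated within the stretch, and its only annotated match of at least 100 bases, Gm28925 elsewhere on chromosome 1, has 81.4% identity over 167 bases and was listed at 0 in all 5 libraries. The bases between Gm10925 and Gm28661, where the copy would lie, number 233, as do those between the matching parts of mt-Co2 and mt-Atp6, but their sequence was not read here. Sequences were taken from the GENCODE M21 transcripts of GRCm38, a reference from another strain, C57BL/6J, and unannotated copies were not searched.

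**Figure D1:**
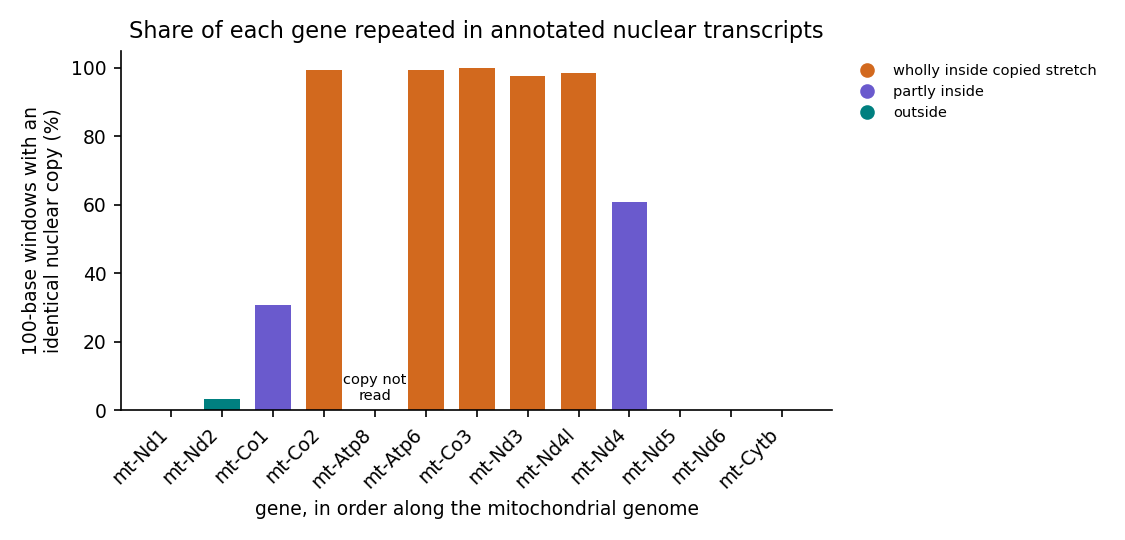
Share of 100-base windows of each mitochondrial messenger RNA gene (y axis, percent) that occur unchanged in an annotated nuclear transcript, with the 13 genes in order along the mitochondrial genome (x axis). Bars are coloured by position relative to the stretch copied on chromosome 1, and mt-Atp8 has no bar because its copy was not read. The share is 97.6% or more for 5 genes in the middle of the order and 0% for 4 genes.

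The measured levels fell into 2 tiers that followed this position. The 7 members partly inside or outside the stretch had mean levels of 3576 to 20437 FPKM, with a median of 8294. The 6 members wholly inside had means of 8.24 to 74.8 FPKM, with a median of 32.5, and together made up 0.312% ± 0.0565 of the summed FPKM of the 13 members (SD, n = 5). The lowest member of the upper tier lay 47.8-fold above the highest member of the lower tier, and in no library did the tiers overlap. Over the 10710 genes whose mean reached 1 FPKM, the median level was 6.004 FPKM. The counting of reads that match several places is not stated in the sources, and the part of the nuclear copies in these levels was not tested. The division of the 13 members by position was made after their values had been seen.

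**Figure D2:**
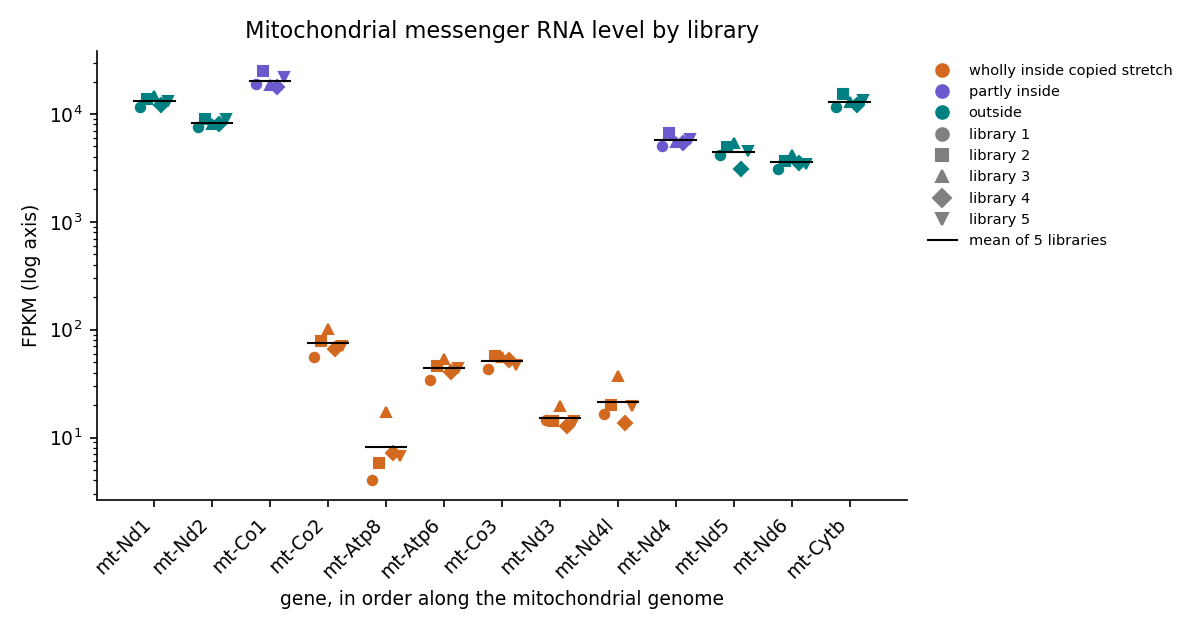
FPKM of the 13 mitochondrial messenger RNAs (y axis, log scale) in each of 5 libraries, in order along the mitochondrial genome (x axis), with a line at each mean. Symbols mark libraries and colours the position relative to the stretch copied on chromosome 1. The 6 genes inside the stretch have means of 8.24 to 74.8 FPKM and the other 7 have means of 3576 to 20437 FPKM.

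The 13 messenger RNA members took 7.75%, 9.89%, 8.55%, 7.65% and 8.92% of the reads of libraries 1 to 5, a mean of 8.55% ± 0.918 (SD, n = 5). Of the members' reads, the 6 members inside the stretch supplied 0.157% ± 0.0257, so the share rests almost wholly on the other 7. Totals ranged from 16674504 to 25407988 reads per library, and the 95% Wilson interval of the highest share, in library 2, was 9.87% to 9.90%. Such intervals cover counting error only. In bulk muscle, fewer mitochondria-rich cells and less mitochondrial RNA per cell cannot be told apart.

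Complex I members include the pump's membrane subunits. The most abundant was mt-Nd1 (chromosome M, 2751 to 3707), with 11582, 13852, 14699, 12162 and 13059 FPKM in libraries 1 to 5, a mean of 13071 ± 1256 (SD, n = 5). Its spread was small, with library 3 highest and library 1 lowest. For mt-Nd2 (3914 to 4951) the values were 7608, 8936, 7995, 7998 and 8935 FPKM, the least variable of the 13 with a coefficient of variation of 7.31%. Libraries 2 and 5 were highest there and nearly equal. mt-Nd4 (10167 to 11544) was at 5083, 6707, 5453, 5342 and 5853 FPKM. Library 2 stood highest for this gene, and library 1 lowest.

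The genes mt-Nd5 and mt-Nd6 lie end to end on opposite strands and share 14 bases. mt-Nd5 (11742 to 13565) was at 4188, 4970, 5375, 3082 and 4512 FPKM. mt-Nd6 (13552 to 14070), the only messenger RNA transcribed from the other strand, was at 3091, 3652, 4159, 3534 and 3443 FPKM, and ranked 20 among all genes of the table by mean level. Its sense strand holds 28.1% G, against 5.88% to 16.1% in the other 12. mt-Nd6 is known to carry little or no poly-A tail, and the strand setting of the counting is not given, so reads from RNA of the opposite strand cannot be told apart from its own. mt-Nd5 exceeded mt-Nd6 in 4 of 5 libraries but lay below it in library 4, with log2 ratios of 0.44, 0.44, 0.37, -0.20 and 0.39.

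The other 2 complex I members were in the lower tier. mt-Nd4l (9877 to 10173) was at 16.6, 19.98, 37.2, 13.7 and 19.6 FPKM, from 97 to 184 reads per library. mt-Nd3 (9459 to 9806) was at 14.4, 14.1, 19.5, 12.8 and 14.4 FPKM, from 91 to 127 reads. Library 3 was highest for both, and library 4 lowest. mt-Nd4l and mt-Nd4 overlap by 7 bases and are known to be read from the same messenger RNA, yet mt-Nd4 exceeded mt-Nd4l by a log2 ratio of 8.06 ± 0.52 (SD, n = 5).

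mt-Cytb (14145 to 15288), cytochrome b and the only mitochondrially encoded subunit of complex III, was at 11509, 15249, 12893, 12234 and 13366 FPKM. Its mean of 13050 ± 1414 FPKM could not be separated from that of mt-Nd1, which was higher in 2 of 5 libraries (log2 difference 0.00 ± 0.12). These 2 and mt-Co1 were the most abundant members.

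In complex IV, mt-Co1 (5328 to 6872), the catalytic subunit, was at 18784, 24948, 18627, 17873 and 21952 FPKM, a mean of 20437 ± 2968 (SD, n = 5). It ranked 2 among all genes, and libraries 2 and 5 stood above the other libraries. mt-Co2 (7013 to 7696), which takes electrons from cytochrome c, was at 56.0, 78.5, 101, 66.9 and 71.3 FPKM, highest in library 3. mt-Co3 (8607 to 9390) was at 42.8, 57.1, 55.9, 52.8 and 47.5 FPKM, highest in library 2. mt-Co1 thus exceeded mt-Co2 by 184-fold to 335-fold and mt-Co3 by 333-fold to 462-fold within a library. The proteins of these 3 genes occur in equal number in the enzyme.

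Both complex V members were in the lower tier. mt-Atp6 (7927 to 8607), which forms the proton path of ATP synthase, was at 34.4, 46.0, 53.4, 40.7 and 43.8 FPKM. mt-Atp8 (7766 to 7969), a small subunit, was lowest of the 13 at 4.06, 5.82, 17.3, 7.20 and 6.75 FPKM, which rest on 19 to 59 reads. Its coefficient of variation was 63.5%, against 17.1% from counting error, and without library 3 it was 23.3% against 19.0%. The 2 genes overlap by 43 bases (chromosome M, 7927 to 7969), shown here because reads from them belong to both; capitals mark the start codon of mt-Atp6 and the stop codon of mt-Atp8.
shared bases: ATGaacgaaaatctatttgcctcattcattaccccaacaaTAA

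As a share of the summed FPKM of the 13 members, complex I took 51.1% ± 2.10, complex III 19.0% ± 0.497, complex IV 29.8% ± 1.93 and complex V 0.0755% ± 0.0157 (SD, n = 5). Both complex V members, mt-Co2, mt-Co3, mt-Nd3 and mt-Nd4l lie inside the copied stretch. Since the counting of reads that match several places is not stated, these shares describe the listed values and may not give the make-up of the RNA. Complex I ranged from 48.6% in library 2 to 54.3% in library 3, and complex IV from 27.0% in library 3 to 31.9% in library 2. In reads, with no division by length, complex IV took 36.9% and complex I 45.6%. Within complex IV, mt-Co1 supplied nearly all of the sum.

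The 3′ ends of the members show how poly-A addition enters the messenger RNAs themselves. In 3 of the 13, mt-Co3, mt-Nd4 and mt-Cytb, the annotated gene ends on a single T past the last whole codon, and the tail is known to complete the stop codon to TAA. The last 18 bases of these genes and, for contrast, of mt-Co1 with a complete stop codon are shown, with the stop letters in capitals.
mt-Co3: tttattgatgaggatctT
mt-Nd4: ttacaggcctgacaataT
mt-Cytb: tactaaaattatatccaT
mt-Co1: tatgtaaaagtaaaaTAA

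These 3 genes lay in both tiers, mt-Nd4 and mt-Cytb in the upper and mt-Co3 in the lower.

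Of 8 within-library ratios, 7 had the same sign in all 5 libraries. On the log2(FPKM + 1) scale mt-Nd1 exceeded mt-Nd2 by 0.65 ± 0.13, mt-Cytb exceeded mt-Nd5 by 1.58 ± 0.27, mt-Atp6 exceeded mt-Atp8 by 2.41 ± 0.51 and mt-Co3 exceeded mt-Nd3 by 1.71 ± 0.23 (SD, n = 5). mt-Co1 exceeded mt-Co2 by 8.09 ± 0.35 and mt-Co3 by 8.61 ± 0.22. For these 7 the exact two-sided sign-flip permutation test gave p = 0.0625, the smallest p that 5 libraries allow (0.0714 after Benjamini-Hochberg adjustment over the 8 ratios). For mt-Nd5 over mt-Nd6, at 0.29 ± 0.27, the exact permutation test gave p = 0.125. No ratio could pass 0.05 in this design.

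The nuclear copies were listed at levels like those of the lower tier. A read lying wholly within an identical part matches gene and copy equally. How much of the values below stems from either place was therefore not tested. The 7 pseudogenes of the stretch on chromosome 1 had means of 23.8 to 84.9 FPKM. Gm28661, the copy of mt-Co2, was at 62.7, 83.7, 102, 74.1 and 72.7 FPKM in libraries 1 to 5, a log2 ratio to mt-Co2 of 0.09 ± 0.07 (SD, n = 5). Gm28437, the copy of mt-Co3, lay 0.32 ± 0.06 above its gene, Gm10222 lay 0.16 ± 0.14 above mt-Nd4l, Gm10925 lay 0.97 ± 0.12 above mt-Atp6 and Gm28438 lay 2.04 ± 0.24 above mt-Nd3. Gene and copy of the first 3 pairs thus differed by less than 0.5 on the log2 scale. For the 2 members that reach beyond the stretch the order was the opposite, with Gm28439 at -7.62 ± 0.40 relative to mt-Nd4 and Gm29216 at -8.24 ± 0.25 relative to mt-Co1.

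**Figure D3:**
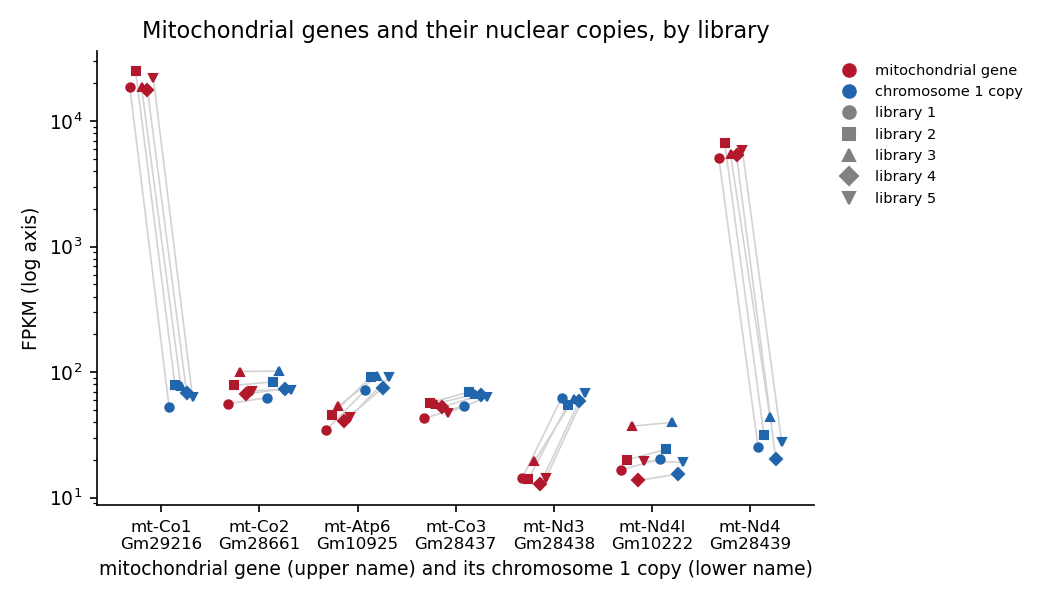
FPKM (y axis, log scale) of 7 mitochondrial genes and of their copies on chromosome 1 in each of 5 libraries, joined by grey lines, with pairs along the x axis in mitochondrial order. For the 5 genes inside the stretch that have an annotated copy, gene and copy lie between 12.8 and 102 FPKM, whereas the means of mt-Co1 and mt-Nd4 lie 301-fold and 192-fold above those of their copies.

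Chromosome 2 holds copies that differ more. Gm13340 matches the whole of mt-Co1 at 97.6% identity, with 37 mismatches in 1545 bases, and was at 6.64, 15.8, 42.5, 14.6 and 9.53 FPKM. Gm13341 matches mt-Co2 at 95.9% and was at 7.40, 11.0, 39.4, 14.5 and 9.14 FPKM, and Gm13339 matches part of mt-Nd2 at 96.7% and was at 1.97, 2.54, 6.82, 2.96 and 2.01 FPKM. Library 3 was far highest for each. Of 57 annotated nuclear genes with an aligned copy of at least 100 bases, 32 were measured and 10 reached a mean of 1 FPKM, namely these 3 and the 7 on chromosome 1.

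FPKM divides by the whole annotated length of a gene. If reads that match several places were left out, which the sources do not state, the length that could be counted would be shorter for partly copied genes. Dividing the level by the share of 100-base windows with no unchanged nuclear copy, a calculation added after seeing the data that holds only under that assumption, gave 29552 ± 4291 for mt-Co1 and 14491 ± 1615 for mt-Nd4 (SD, n = 5). Under it mt-Nd4 ranked 2 among the members, after mt-Co1 and before mt-Nd1 and mt-Cytb, in place of 5. No such value is given for the 6 members inside the stretch.

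Libraries 2 and 3 held the highest level of every member. Library 3 was highest for 8 members, against 37.4% of all 10710 genes tested, and library 2 for 5, against 23.2%. Libraries 1, 4 and 5 held the highest level of 0 members, against 21.2%, 10.5% and 7.68% of all genes. Library 1 was lowest for 9 members (10.2% of all genes) and library 4 for the other 4 (38.0%). Counts by tier are given with no test of the difference. Of the 6 members inside the stretch, 5 were highest in library 3, and their mean deviation on the log2(FPKM + 1) scale was 0.54 in library 3 and -0.33 to -0.01 in the others. The mean of 0.54 rests largely on mt-Atp8 (1.14) and mt-Nd4l (0.85), and the tiers overlapped in library 3, with mt-Co3 at 0.13 and mt-Atp6 at 0.30 in the lower tier and mt-Nd6 at 0.22 and mt-Nd5 at 0.31 in the upper. Of the other 7 members, 4 were highest in library 2 and 3 in library 3, with mean deviations of 0.17 in library 2, 0.07 in library 3, 0.05 in library 5 and -0.14 in libraries 1 and 4. Median-of-ratios scaling divides the libraries by factors of -0.11 to 0.07 on the log2 scale. Under this scaling library 3 kept its 8 members (29.5% of all genes) and library 2 held 3 (16.7%). Then mt-Co3 was highest in library 4 (21.8%) and mt-Nd2 in library 5 (16.2%), with none in library 1 (15.7%). Scaled to the nuclear total, the counts were again 8 in library 3 (36.9% of all genes) and 5 in library 2 (26.7%), with 0 in libraries 1, 4 and 5 (18.8%, 9.41% and 8.14%).

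**Figure D4:**
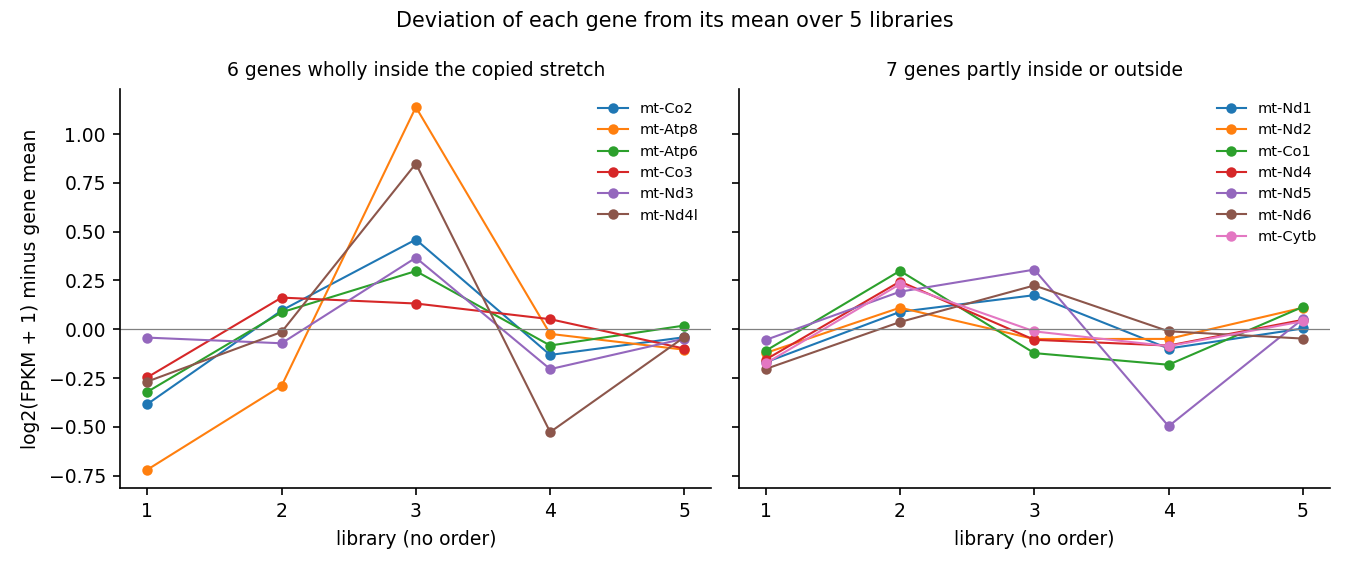
Deviation of each member from its own mean over the 5 libraries on the log2(FPKM + 1) scale (y axis), by library (x axis, no order), for the 6 members inside the copied stretch (left) and the other 7 (right). In library 3 the left group has a mean of 0.54 and the right group 0.07, and in library 2 the right group has a mean of 0.17.

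Marker RNAs of fibre types and of other cells also differed in level between these libraries, described here with no test. In bulk muscle, more cells of a type and more marker RNA per cell cannot be told apart. For comparison, library 3 was highest for 37.4% of all 10710 genes tested and library 2 for 23.2%. The 7 defining fibre markers, among them Acta1 and Ckm, were high in all libraries, with summed levels of 67746 to 94991 FPKM. All 8 slow fibre or soleus markers were highest in library 2, where they summed to 4365 FPKM, against 1303 to 1942 elsewhere. All 10 macrophage markers were highest in library 3 (391 FPKM in sum, against 97.5 to 129), as were all 4 erythroid markers at 1 FPKM or more (1028 against 328 to 500.4, over 5 markers) and all 6 adipocyte markers (537 against 209.9 to 373). Schwann cell markers (4 of 5 highest in library 3, sums of 136 against 60.7 to 92.3 FPKM) and fibroblast markers (3 of 5, 1057 against 605 to 794) were also highest in library 3, and endothelial markers in library 2 (3 of 5, 83.0 against 62.5 to 69.7). No marker in these lists was at 0 throughout. The part of these cells in the mitochondrial levels was not tested. Without library 3 the mean of mt-Atp8 was 5.96 FPKM in place of 8.24 and that of mt-Nd4l 17.5 in place of 21.4.

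In limma's comparison of each gene's variance with the abundance trend, 0 of 13 members passed an adjusted p of 0.05, as did 0% of the 10710 genes tested. A count of 0 does not show that levels did not vary. At an unadjusted p under 0.05 there were 2 members, against 5.75% of all genes. These were mt-Atp8, with a log2 SD of 0.69 and a limma adjusted p of 0.695, and mt-Nd4l, with a log2 SD of 0.52 and a limma adjusted p of 0.815. The count fell to 0 members without library 3, and to 1 without library 4 or under median-of-ratios scaling. A minimum mean of 10 FPKM left out mt-Atp8, and 1 of the 12 members then tested was counted. The median log2 SD was 0.20 over the members and 0.19 over all genes.

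The subunits encoded in the nucleus gave another scale for these levels. In complex I the 36 nuclear subunits had a median of 169 FPKM and reached 643, which 5 of the 7 mitochondrial members exceeded; the most abundant were Ndufb9, Ndufb10 and Ndufs7. In complex III, mt-Cytb exceeded all 9 nuclear subunits, the highest of which were Uqcr11 (497 ± 98.1 FPKM), Uqcrc1 and Uqcr10. In complex IV, mt-Co1 exceeded all 14 nuclear subunits, led by the muscle isoforms Cox6a2 (1742 ± 285 FPKM) and Cox8b (1151 ± 302) and by Cox5b, whereas mt-Co2 and mt-Co3 lay below their median of 595. In complex V both members lay below the lowest of 15 nuclear subunits (152 FPKM), among which Atp5b, the catalytic beta subunit, stood at 1867 ± 234, Atp5a1 at 916 ± 91.7 and Atp5g3 at 647 ± 88.2.

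As means on the log2(FPKM + 1) scale, mitochondrial minus nuclear subunits came to 3.02 ± 0.30 in complex I, 5.25 ± 0.23 in complex III, 0.13 ± 0.25 in complex IV and -4.35 ± 0.53 in complex V (SD, n = 5). The exact two-sided sign-flip permutation test gave p = 0.0625 for complexes I, III and V (0.0833 after adjustment over 4 complexes) and p = 0.375 for complex IV, which was positive in 3 of 5 libraries. Without the 6 members inside the stretch, an alternative added after seeing the data, the difference was 5.42 in complex I and 5.69 in complex IV, and complex V had no member left. With the median over members in place of the mean, complex IV turned to -2.97.

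**Figure D5:**
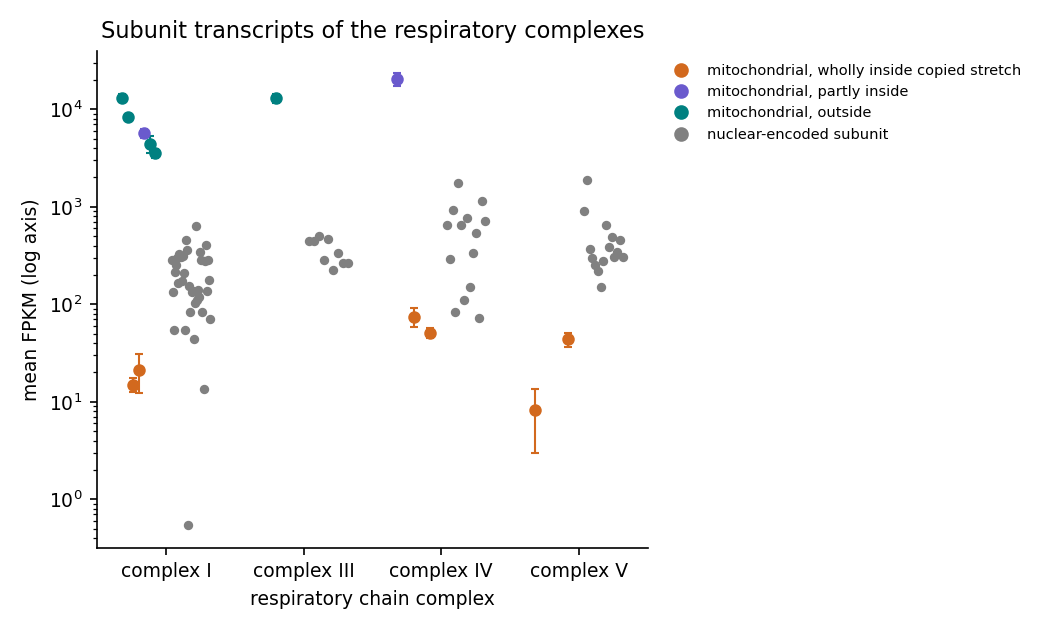
Mean FPKM (y axis, log scale) of the mitochondrially encoded subunits (coloured, bars are SD over 5 libraries) and the nuclear-encoded subunits (grey, means) of complexes I, III, IV and V (x axis). Members outside or partly inside the copied stretch lie above all nuclear subunits of their complex, and the 6 members inside it lie at 8.24 to 74.8 FPKM.

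Nuclear subunits were highest mainly in library 2, shared with 5 members, or library 4, shared with 0 members, and seldom in library 3. Library 3, highest for 8 members, was highest for 0 of 35 nuclear complex I subunits at 1 FPKM or more, 0 of 9 of complex III, 2 of 14 of complex IV and 0 of 15 of complex V. Library 2 was highest for 14, 6, 6 and 10 of these nuclear subunits and library 4 for 21, 3, 6 and 5. Of the 8 members highest in library 3, 5 lie inside the copied stretch. Among the 7 members partly inside or outside it, 3 were highest in library 3 and 4 in library 2. Over all genes tested, the shares were 37.4% for library 3, 23.2% for library 2 and 10.5% for library 4. Complex II (succinate dehydrogenase), which has no mitochondrially encoded subunit, was highest in library 2 for 3 of 4 genes, with Sdhb at 415 ± 57.8 FPKM, Sdha at 320 ± 37.9 and Sdhd at 173 ± 15.6.

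Nuclear genes that copy mitochondrial DNA or transcribe, process and translate its RNA were measured far below the upper tier. Of 18 genes of transcription and replication, 15 reached 1 FPKM, with a median of 5.47 FPKM. The highest were the transcription factor Tfb2m at 16.6 ± 2.93 FPKM, the single-strand binding protein Ssbp1 at 11.1 ± 0.807 and the elongation factor Tefm at 9.91 ± 0.431. Of 28 genes of RNA processing and stability, 27 reached 1 FPKM (median 5.62), led by Fastk at 68.4 ± 4.51, Hsd17b10, a subunit of the mitochondrial ribonuclease P, at 53.4 ± 3.82 and the RNA granule protein Grsf1 at 52.2 ± 6.72 FPKM. Of 20 genes that serve the charging of mitochondrial transfer RNAs, all synthetases but Qrsl1, 19 reached 1 FPKM (median 6.13). Kars was at 69.1 ± 16.4, Gars at 30.8 ± 2.98 and Lars2 at 30.2 ± 7.44 FPKM, of which the first 2 also serve the cytosol. Library 3 was highest for 1 of 15, 7 of 27 and 8 of 19 genes of these lists, against 37.4% of all genes, and their median coefficients of variation were 12.4%, 9.98% and 12.6%, against 16.3% over all genes and 14.5% over the 13 members.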

How the data were processed

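The deposited table gives FPKM per gene for 5 libraries made from poly-A selected RNA of about 20 mg of muscle, per the labels' protocols. Per the submitters' processing notes, edgeR, DESeq2, HTSeq 0.6.1, STAR 2.5, TopHat and the build mm10 were used, in roles they do not give. Annotation release, strand setting and treatment of multi-mapping reads: not given in the sources used here. FPKM divides by the library total, so abundant genes lower the others. Of 35275 identifiers, 34490 matched GENCODE M21 (GRCm38). Library totals were found from the steps of 14953 single-transcript genes, and reads of all 13 members were then whole within 0.001 at their annotated length.

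Spread between libraries was tested on log2(FPKM + 1) with limma 3.58.1 in R 4.3.3 (intercept, abundance trend, one-sided F test, Benjamini-Hochberg, 10710 genes with a mean of at least 1 FPKM). In a check on simulated data this test missed most genes that had been given a larger spread. Ratios used an exact sign-flip permutation test over 32 sign patterns. The planned ratio of the 2 ribosomal RNAs was not analysed here. Nuclear copies were found with BLAST 2.17.0 (E-value 1e-10, at least 100 bases). Python 3.11.15, numpy 2.4.6, pandas 2.3.3, scipy 1.17.1 and matplotlib 3.10.9 were used. Named genes were all members, the 3 highest of each nuclear list and annotated copies at 1 FPKM or more. The members and lists were chosen with earlier results of these data known. Alternatives covered pseudocount, filter, scaling, summary and each library left out. No columns of other samples were used.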

Additional observations from a re-analysis of the deposited data

Results flagged for a closer look

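Among 72 sets of 5 library values, 13 had 1 library far from the others by Dixon's test. The sets share the same libraries and some share genes, so the 13 cannot be read against a chance rate. Dixon's test was not run over all genes, of which 37.4% were highest in library 3. Library 3 was far highest for mt-Atp8 (17.3 FPKM against 4.06 to 7.20), mt-Nd3 (19.5 against 12.8 to 14.4) and mt-Nd4l (37.2 against 13.7 to 19.98). It was also far highest for the chromosome 2 copies Gm13339 (6.82 FPKM against 1.97 to 2.96), Gm13340 (42.5 against 6.64 to 15.8) and Gm13341 (39.4 against 7.40 to 14.5), and for the synthetase gene Kars (97.6 against 57.6 to 68.8). The same library had the highest log2 ratio of mt-Nd1 over mt-Nd2 (0.88 against 0.55 to 0.63) and the lowest of mt-Nd4 over mt-Nd4l (7.16 against 8.15 to 8.51). Library 4 had the lowest log2 ratio of mt-Nd5 over mt-Nd6 (-0.20 against 0.37 to 0.44). Marker sums stood out in library 2 for slow fibre or soleus (4365 FPKM against 1303 to 1942) and in library 3 for macrophages (391 against 97.5 to 129) and erythroid cells (1028 against 328 to 500.4).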

How the results depend on the processing

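No paired analysis was possible because the 5 libraries form 1 group. The 8 ratios kept their sign under every alternative run, and mt-Nd5 over mt-Nd6 came to 0.25 to 0.41 with 1 library left out. In reads not divided by length, which adds the log2 ratio of the gene lengths, mt-Nd5 over mt-Nd6 was 2.10, mt-Cytb over mt-Nd5 0.91, mt-Co3 over mt-Nd3 2.94, mt-Nd4 over mt-Nd4l 10.3, mt-Atp6 over mt-Atp8 4.27, mt-Co1 over mt-Co2 9.28, mt-Co1 over mt-Co3 9.61 and mt-Nd1 over mt-Nd2 0.54. The difference between mitochondrial and nuclear subunits kept its sign in complexes I, III and V, and in complex IV was -2.97 with the median over members, since 2 of its 3 members lie in the lower tier. Counted in reads, complexes I, III, IV and V took 45.6%, 17.5%, 36.9% and 0.0368% of the members' sum. Under median-of-ratios scaling library 2 was highest for 3 members. Without library 3, 4 genes in all passed limma's adjusted p for spread, against 0 with all libraries and 0 to 4 over the libraries left out; none of the 4 was a member, and the cause was not tested. Depth limits mt-Atp8 most.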
